A study of Mus musculus with 18 samples.

Results

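The genes of the 4 mammalian Hox clusters were followed through reprogramming of mouse embryonic fibroblasts (MEFs) and set against iPSC clones, embryonic stem cells and keratinocytes. Members were taken by symbol: a probe that carries 1 gene symbol alone, and that symbol is a Hox gene of cluster A, B, C or D. This gave 37 genes, each with 1 probe, among 19938 genes with a probe of their own and 23410 probes with a gene symbol. HoxA had 10 members and HoxB, HoxC and HoxD 9 each. Hoxb8 had only a probe shared with Hoxb7 and is not described.

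MEFs carrying ROSA-rtTA and Nanog-GFP were transfected with a doxycycline-responsive piggyBac transposon that encodes OCT4, KLF4, c-MYC and SOX2 together with an mCherry reporter, and were kept in ES cell medium with doxycycline at 1 µg/mL. The high-KLF4 cassette (OK+9MS) and the low-KLF4 cassette (OKMS) differ in the form of Klf4 they carry. Sorted mCherry+ cells of each cassette gave 1 array each on days 2, 4 and 18 and 2 arrays on day 8. In the paper's scheme cultures are passaged on day 8, and full reprogramming shows as gain of Nanog-GFP with silencing of mCherry. The mCherry+ cells of day 18 are thus the fraction that had not silenced the reporter. The other groups had 2 arrays each: high-KLF4 iPSC clones A10 and H10, low-KLF4 iPSC clones A7 and A9, primary keratinocytes of pups at post-natal day 2, and Nanog-GFP mESCs of the line 1A2. Each iPSC group is thus a pair of clones, and the mESC arrays are of 1 line. The limbs of the pups were removed before the skin was taken, and the keratinocytes were cultured for a week before harvest. The methods describe the pairs of day 8, keratinocyte and mESC arrays as independent experiments. All 18 arrays were Affymetrix Mouse Gene 1.0 ST arrays, and a value here is the RMA signal of a gene's probe on a linear scale. Unreprogrammed MEFs were not analysed here, so day 2 is the earliest point.

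Hox genes encode homeodomain transcription factors that lie in 4 clusters, and their order along each cluster matches the order in which they are expressed from head to tail of the embryo. Low paralog numbers belong to the anterior body and hindbrain, middle numbers to the trunk, and high numbers to the lumbosacral body, the limb ends and the genital tract. Adult fibroblasts and epidermal cells keep a Hox pattern that reflects where in the body they came from. In pluripotent cells most Hox genes are held silent by Polycomb complexes, while Trithorax complexes keep them open in expressing cells. PBX and MEIS proteins bind DNA together with HOX proteins, and retinoic acid switches on the anterior genes.

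The clusters also hold microRNA genes. The miR-196 family lies beside paralogs 9 and 10 and targets middle Hox genes, and the miR-10 family lies beside paralog 4. The mature sequences are shown for the miR-196 genes because 1 of them separated keratinocytes from every other array, and for the miR-10 genes because they share the clusters with the members but gave flat signals. Sequences are from RefSeq (GRCm38.p6) and capitals mark the seed, bases 2 to 8:
miR-196a-5p, Mir196a-1, chr11:96265187-96265208, plus strand: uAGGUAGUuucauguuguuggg
miR-196a-5p, Mir196a-2, chr15:102973365-102973386, plus strand: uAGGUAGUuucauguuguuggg
miR-196b-5p, Mir196b, chr6:52230129-52230150, minus strand: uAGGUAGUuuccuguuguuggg
miR-10a-5p, Mir10a, chr11:96317186-96317208, plus strand: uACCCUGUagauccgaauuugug
miR-10b-5p, Mir10b, chr2:74726074-74726096, plus strand: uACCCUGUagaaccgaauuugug
The 3 miR-196 genes share the seed AGGUAGU and the miR-10 genes share ACCCUGU. Mir196a-1 in HoxB and Mir196a-2 in HoxC give the same mature sequence, from which miR-196b-5p differs by A12C, counted from 1 at the 5′ end. The miR-10 sequences differ by U12A.

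Of the 37 members, 21 had a promoter in the RefSeq table, in 23 windows that run from 250 bases before to 50 after a start site. Of these, 4 are shown: Hoxd13 and Hoxd12, which had lower signals on day 18 than on day 2 and stayed low in keratinocytes, and Hoxa7 and Hoxb4, which had higher signals in keratinocytes than in mESCs. Capitals mark each CG pair, the site of DNA methylation, and the build is GRCm38.p6:
Hoxd13, chr2:74667975-74668274, plus strand: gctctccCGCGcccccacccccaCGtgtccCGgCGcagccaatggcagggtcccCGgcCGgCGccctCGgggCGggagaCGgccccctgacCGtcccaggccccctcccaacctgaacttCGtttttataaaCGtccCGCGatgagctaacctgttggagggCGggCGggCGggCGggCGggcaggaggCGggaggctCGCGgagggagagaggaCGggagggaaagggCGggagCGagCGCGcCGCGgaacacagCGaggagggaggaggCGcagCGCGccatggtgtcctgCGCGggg
Hoxd12, chr2:74674763-74675062, plus strand: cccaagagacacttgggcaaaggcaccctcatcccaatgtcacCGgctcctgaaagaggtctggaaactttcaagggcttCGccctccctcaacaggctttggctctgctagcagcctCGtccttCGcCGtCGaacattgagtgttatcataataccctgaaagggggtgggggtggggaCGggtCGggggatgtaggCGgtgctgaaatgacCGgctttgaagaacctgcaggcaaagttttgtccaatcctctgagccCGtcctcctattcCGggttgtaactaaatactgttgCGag
Hoxa7, chr6:52218524-52218823, minus strand: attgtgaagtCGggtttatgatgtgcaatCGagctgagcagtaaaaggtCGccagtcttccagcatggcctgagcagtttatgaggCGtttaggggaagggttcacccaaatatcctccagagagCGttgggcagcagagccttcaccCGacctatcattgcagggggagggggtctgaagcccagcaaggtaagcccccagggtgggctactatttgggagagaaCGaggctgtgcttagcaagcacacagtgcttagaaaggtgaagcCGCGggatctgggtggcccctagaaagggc
Hoxb4, chr11:96318017-96318316, plus strand: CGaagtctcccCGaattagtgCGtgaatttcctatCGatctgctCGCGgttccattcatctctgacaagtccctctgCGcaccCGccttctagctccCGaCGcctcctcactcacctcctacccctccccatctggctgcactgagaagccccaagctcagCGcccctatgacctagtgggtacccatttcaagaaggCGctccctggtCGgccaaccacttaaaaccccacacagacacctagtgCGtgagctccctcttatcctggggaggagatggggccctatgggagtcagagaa
Hoxd13 held 37 CG pairs in 300 bases, a count reached by 5.58% of all promoters. Hoxd12 held 13, Hoxa7 9 and Hoxb4 14. The median over the 23 Hox windows was 15.0, against 7.0 over all 32851 windows. The letters CCACCC, the core that KLF proteins recognise, stood on either strand in 10 of 23 Hox windows (43.5%), against 31.5% of all windows. The PBX-HOX motif TGATTNAT stood in 2 Hox windows (8.7%), against 3.22% of all. These are letter matches and show no binding.

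The cell labels were checked against marker genes. The geometric mean signal of 13 pluripotency markers lay between 2169 and 2443 in the iPSC clones and at 2452 and 2477 in mESCs, against 90.7 and 92.9 in keratinocytes, and 13 keratinocyte markers averaged 3546 and 3580 in keratinocytes, against 182 and 185 in mESCs. Over 29 fibroblast and mesenchymal markers the geometric mean was 1477 and 1172 on day 2 (high-KLF4 and low-KLF4), between 592 and 745 in the iPSC clones, 207 and 203 in keratinocytes and 467 and 476 in mESCs. The iPSC and mESC arrays thus carried more fibroblast marker signal than keratinocytes did. In keratinocyte arrays 7 melanocyte markers averaged 898 and 650, against 111 and 108 in mESCs. Of 6 immune markers 4 were lower on day 2 than in pluripotent cells and none higher, and of 5 endothelial markers 3 were higher and 1 lower. In bulk RNA, fewer cells of a type and less RNA per cell cannot be told apart. The part that such cells play in the Hox values was not tested.

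On day 2 most members read above pluripotent cells. Of 37, 31 were higher and 1 was lower on day 2 than in the mean of both iPSC groups and mESCs (limma, adjusted p under 0.05 over all probes), while 25.7% of all probes were called higher and 18.6% lower. The median difference of the members was 0.90 on the log2 scale, against 0.10 over all probes. HoxA had 9 of 10 higher, HoxB 7 of 9, HoxC 8 of 9 and HoxD 7 of 9. By position, all 10 members of paralogs 5 to 8 were higher (median 1.32), with 8 of 11 of paralogs 1 to 4 (0.74) and 13 of 16 of paralogs 9 to 13 (1.00). The 5 that passed in neither direction were Hoxa13, Hoxb1, Hoxb13, Hoxd1 and Hoxd3, the first with a difference of 0.65 and the others between -0.08 and 0.20. The exception in direction was Hoxc13, a regulator of hair keratins, at -0.51 (SE 0.16, adjusted p = 0.0368). That call was lost without keratinocyte array 1 or 2, clone H10 or clone A9, and with mESCs as the only pluripotent cells.

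**Figure D1:**
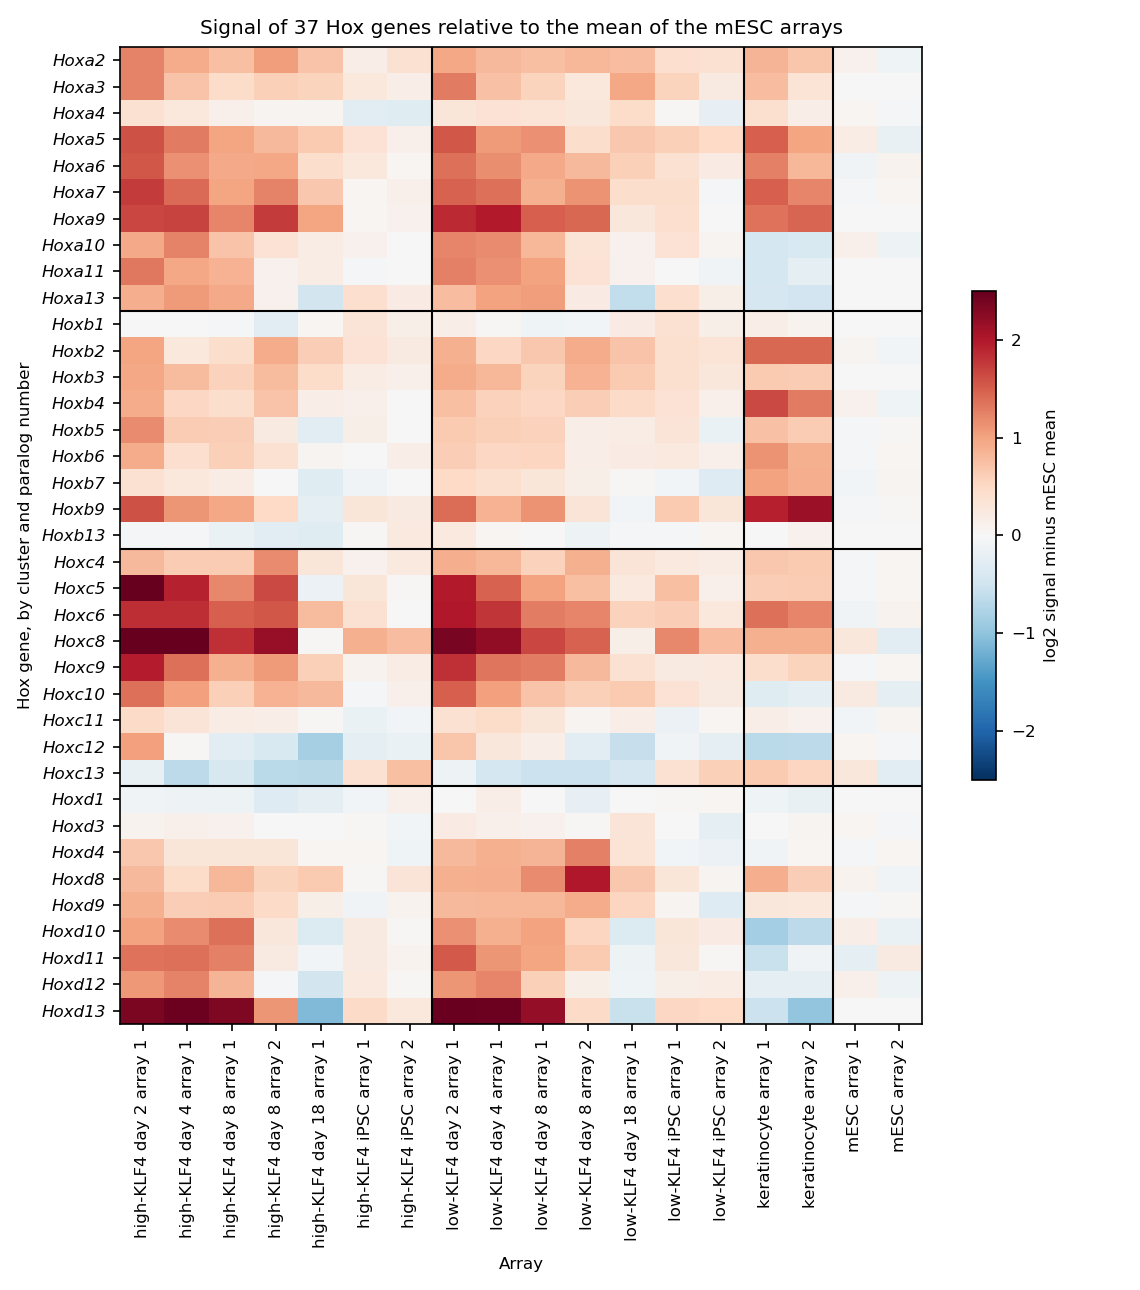
Signal of the 37 Hox genes (rows, by cluster and paralog number) on 18 arrays (columns), as log2 signal minus the mean of the mESC arrays, where red is above mESCs and blue below. The day 2 columns are red for most genes. The day 18 columns are paler, and Hoxd13, Hoxc12, Hoxc13 and Hoxa13 are among the rows below mESCs there. The keratinocyte columns are red in HoxB and in the anterior and middle HoxA and HoxC rows.

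HoxC held the largest differences among members apart from Hoxd13. Hoxc8, a trunk gene that helps set thoracic identity, read 1688 at day 2, 1556 at day 4, 959 and 1222 at day 8, 276 at day 18, 499 in clone A10 and 462 in clone H10 with the high-KLF4 cassette. With the low-KLF4 cassette it read 1386 at day 2, 1259 at day 4, 861 and 753 at day 8, 297 at day 18, 615 in clone A7 and 462 in clone A9. It read 495 and 499 in keratinocytes and 328 and 221 in mESCs. Day 2 arrays were above every pluripotent array, with a difference of 1.90 (SE 0.17, adjusted p = 8.17e-05). The Hoxc5 signal, from another trunk gene, was 619 at day 2, 409 at day 4, 248 and 338 at day 8, 96.7 at day 18, 134 in clone A10 and 109 in clone H10 with high-KLF4. With low-KLF4 it was 425 at day 2, 298 at day 4, 217 and 180.3 at day 8, 127 at day 18, 180.3 in clone A7 and 118 in clone A9. Keratinocytes read 166 and 167 and mESCs 104 and 111. The day 2 difference was 2.05 (SE 0.18, adjusted p = 7.2e-05), and on day 18 high-KLF4 cells read below every clone and mESC array while low-KLF4 cells read among them. For Hoxc9, which specifies thoracic motor neurons, the high-KLF4 series was 444 at day 2, 297 at day 4, 213 and 238 at day 8, 173 at day 18, 122 in clone A10 and 131 in clone H10. Its low-KLF4 series was 407 at day 2, 288 at day 4, 278 and 202 at day 8, 149 at day 18, 134 in clone A7 and 136 in clone A9. Keratinocytes read 156 and 169.5 and mESCs 111 and 118. Day 2 lay above pluripotent cells by 1.77 (SE 0.12, adjusted p = 1.62e-05), and here day 18 stayed above every iPSC and mESC array.

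In HoxD the largest differences were those of posterior genes, which pattern the limb ends. Hoxd13, needed for digit formation, read 743 at day 2, 789.6 at day 4, 729 and 309 at day 8, 67.0 at day 18, 201 in clone A10 and 174 in clone H10 in high-KLF4 cells. In low-KLF4 cells it read 796 at day 2, 793 at day 4, 667 and 203 at day 8, 98.9 at day 18, 208 in clone A7 and 204 in clone A9. It read 99.4 and 73.5 in keratinocytes and 146 and 143 in mESCs. The day 2 signal was a factor of 4.35 above pluripotent cells, on the log2 scale 2.12 (SE 0.44, adjusted p = 0.00552), and the lowest array of all 18 was high-KLF4 day 18. The forearm gene Hoxd11 followed, at 493 at day 2, 503 at day 4, 466 and 227 at day 8, 185 at day 18, 228 in clone A10 and 206 in clone H10 with high-KLF4. Its low-KLF4 values were 557 at day 2, 418 at day 4, 381 and 305 at day 8, 178 at day 18, 236 in clone A7 and 197 in clone A9. Keratinocytes read 132 and 182 and mESCs 166 and 225. Day 2 stood higher by 1.33 (SE 0.27, adjusted p = 0.0045). Hoxd12, between them on the chromosome, read 227 at day 2, 252 at day 4, 194 and 103 at day 8, 77.8 at day 18, 126 in clone A10 and 109 in clone H10 with high-KLF4. With low-KLF4 it read 231 at day 2, 251 at day 4, 162 and 118 at day 8, 99.2 at day 18, 119 in clone A7 and 122 in clone A9. Keratinocytes read 91.9 and 89.9 and mESCs 118 and 97.3. Its day 2 difference was 1.00 (SE 0.22, adjusted p = 0.00745). Hoxd1 and Hoxd3, at the anterior end of the same cluster, passed in neither direction, at -0.06 and 0.20.

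In HoxA the 3 members with the largest day 2 differences were Hoxa9, Hoxa7 and Hoxa6. Hoxa5 and the posterior gene Hoxa11 came close behind Hoxa6, at 1.31 each. Hoxa9, which keeps blood progenitors dividing and is known from leukaemia, read 393 at day 2, 395 at day 4, 285 and 413 at day 8, 244 at day 18, 126 in clone A10 and 132 in clone H10 with high-KLF4. With low-KLF4 it read 445 at day 2, 485 at day 4, 347 and 333 at day 8, 149 at day 18, 165 in clone A7 and 121 in clone A9. Keratinocytes read 316 and 335 and mESCs 122 and 123. The day 2 difference was 1.67 (SE 0.15, adjusted p = 7.96e-05), and the keratinocyte arrays lay between the day 2 and the pluripotent arrays. Hoxa7 read 726 at day 2, 583 at day 4, 433 and 512 at day 8, 348 at day 18, 224 in clone A10 and 237 in clone H10 in high-KLF4 cells. In low-KLF4 cells it read 603 at day 2, 568 at day 4, 405 and 473 at day 8, 295 at day 18, 296 in clone A7 and 212 in clone A9. Keratinocytes read 612 and 508 and mESCs 209.5 and 226. Day 2 exceeded pluripotent cells by 1.51 (SE 0.14, adjusted p = 9.9e-05). Its neighbour Hoxa6 read 383 at day 2, 288 at day 4, 250.2 and 256 at day 8, 178 at day 18, 158 in clone A10 and 135 in clone H10 with high-KLF4. Low-KLF4 cells gave 341 at day 2, 294 at day 4, 250.5 and 228 at day 8, 198 at day 18, 169.8 in clone A7 and 150.4 in clone A9. Keratinocytes read 314 and 233 and mESCs 122 and 139.5. The day 2 difference was 1.32 (SE 0.12, adjusted p = 0.000103), with no overlap between day 2 and pluripotent arrays in any of the 3.

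In HoxB the day 2 differences were smaller, with a median of 0.72. Hoxb9, a thoracic gene, read 694 at day 2, 496 at day 4, 452 and 326 at day 8, 198 at day 18, 286 in clone A10 and 271 in clone H10 with high-KLF4. With low-KLF4 it read 605 at day 2, 424 at day 4, 502 and 290.5 at day 8, 219.5 at day 18, 365 in clone A7 and 286 in clone A9. Keratinocytes read 884 and 1021 and mESCs 225 and 237. Day 2 was above pluripotent cells by 1.24 (SE 0.21, adjusted p = 0.00203), but keratinocytes were the highest group. Hoxb5, which acts in lung and enteric nerve development, read 233 at day 2, 159 at day 4, 157 and 120.5 at day 8, 85.5 at day 18, 113 in clone A10 and 103 in clone H10 with high-KLF4. With low-KLF4 it read 161 at day 2, 155 at day 4, 153 and 115 at day 8, 118 at day 18, 128 in clone A7 and 92.1 in clone A9. Keratinocytes read 171 and 159 and mESCs 101 and 104. Day 2 was higher by 0.86 (SE 0.16, adjusted p = 0.00323). The anterior gene Hoxb3 read 359.8 at day 2, 317 at day 4, 276 and 317 at day 8, 254 at day 18, 210.0 in clone A10 and 201 in clone H10 in high-KLF4 cells. Low-KLF4 cells gave 352 at day 2, 329.5 at day 4, 272 and 336 at day 8, 289 at day 18, 244 in clone A7 and 225 in clone A9. Keratinocytes read 289 and 288 and mESCs 183 and 185. The day 2 difference was 0.78 (SE 0.09, adjusted p = 0.000342), with day 2 arrays above all pluripotent arrays.

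**Figure D2:**
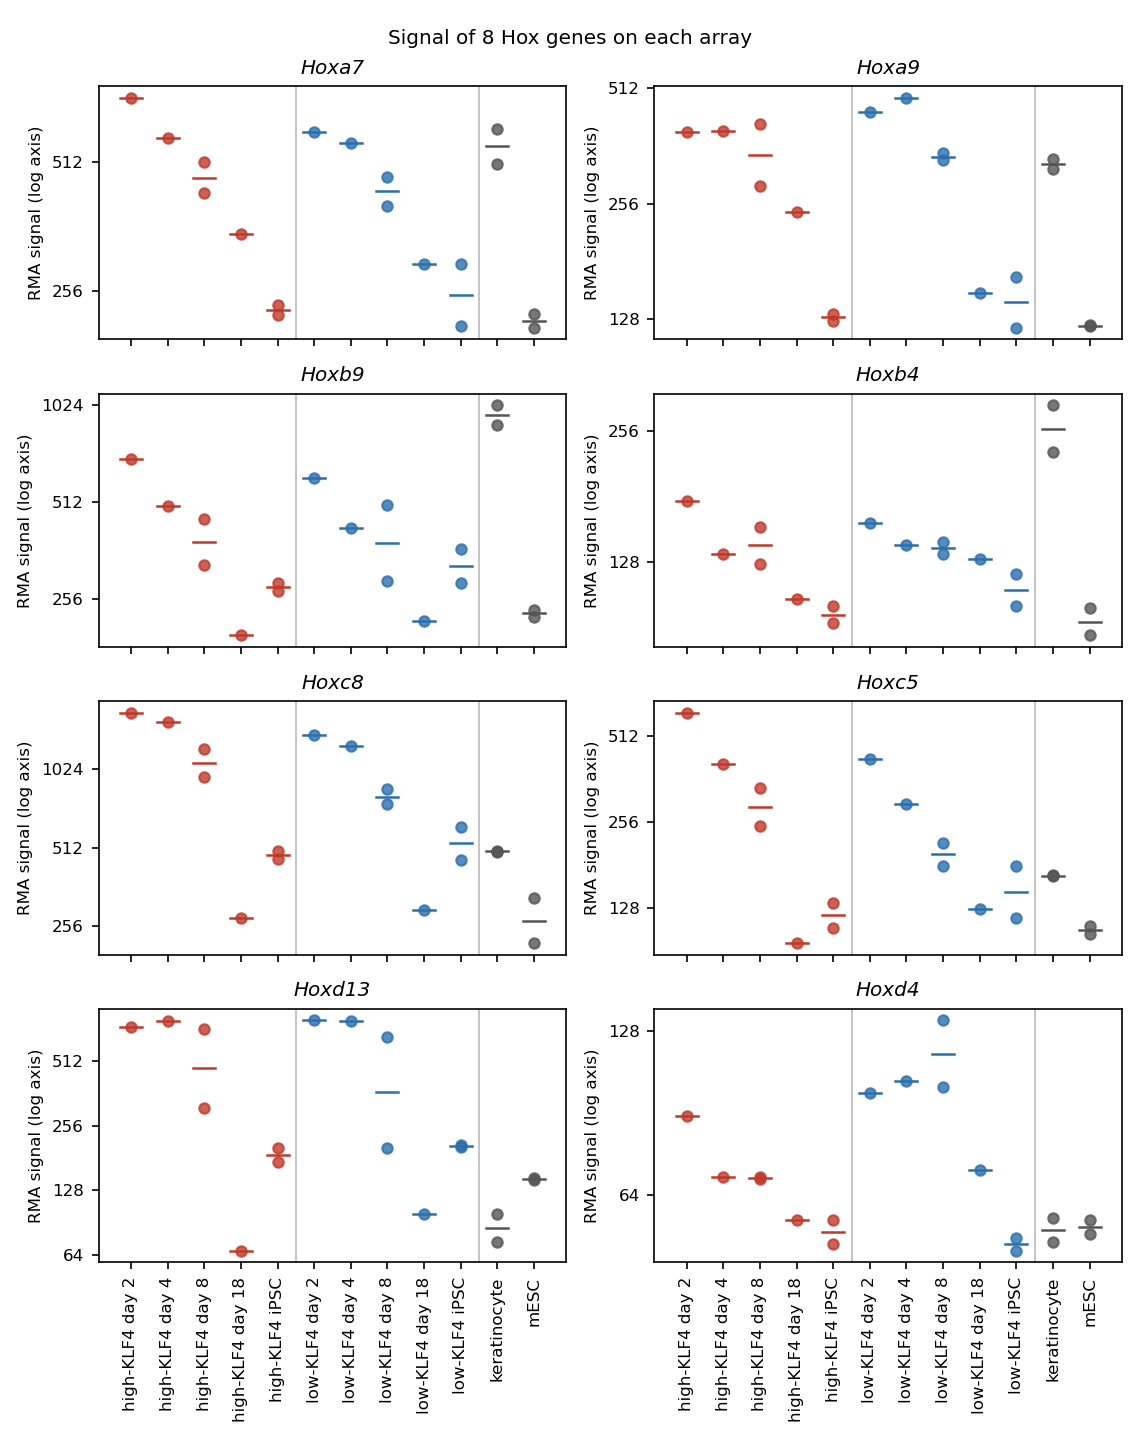
RMA signal (log axis) of 8 Hox genes on each array, with a point per array and a bar at the group's geometric mean, high-KLF4 in red, low-KLF4 in blue, keratinocytes and mESCs in grey. Hoxd13 and Hoxc8 are at or near the top on days 2 and 4 and near the bottom on day 18, while Hoxb9 and Hoxb4 are highest in keratinocytes.

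The question of when the fibroblast pattern is lost was put to the later days. On day 4 no member was called against day 2 (limma, 6 at an unadjusted p under 0.05), where 0.124% of all probes were called higher and 0.0726% lower. The median was -0.15, and 31 of 37 differences were below 0. With array 1 or array 2 of low-KLF4 day 8 left out, 1 member was called lower. On day 8, 5 members were lower than on day 2 and none higher, where 2.29% of all probes were higher and 3.03% lower. They were Hoxc12 at -1.05, Hoxc5 at -1.10, Hoxc9 at -0.88, Hoxc10 at -0.74 and Hoxa3 at -0.81, so 4 of the 5 lay in HoxC. The median of the members was -0.35, and 36 of 37 differences were below 0. The count changed with the day 8 arrays: it was 14 without low-KLF4 array 1 and 9 without high-KLF4 array 1, and it was 0 when day 2 and day 8 arrays were fitted alone or with the cassette as a block. In alternatives chosen after seeing the data it was 22 without both arrays numbered 1 and 10 without both numbered 2. Of 13 pluripotency markers 10 were higher on day 8 than on day 2 (median 1.70), as were 3 of 13 keratinocyte markers. None of 29 fibroblast markers was called, but the day 8 arrays disagreed on them. All 29 read lower in array 2 than in array 1, by medians of -1.67 (high-KLF4) and -1.96 (low-KLF4). The missing calls thus do not show that fibroblast markers stayed level. The part of these 3 marker lists in the Hox values was not tested.

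By day 18, 24 members were lower than on day 2 and none higher, where 7.71% of all probes were higher and 12.8% lower. The median was -0.71, against -0.07 over all probes. Paralogs 9 to 13 had 13 of 16 lower (median -1.26), paralogs 5 to 8 had 9 of 10 (-0.95) and paralogs 1 to 4 had 2 of 11 (-0.37). HoxC had a median of -1.24 with 6 of 9 lower, HoxA -0.94 with 7 of 10, HoxD -0.55 with 6 of 9 and HoxB -0.51 with 5 of 9. The members that moved most were Hoxd13 at -3.24 (SE 0.54, adjusted p = 0.00426), a factor of 9.45, Hoxc8 at -2.42 (SE 0.21, adjusted p = 0.000216), a factor of 5.35, and Hoxc5 at -2.21 (SE 0.22, adjusted p = 0.00042), a factor of 4.63. At the other end Hoxb1, Hoxd3, Hoxa4 and Hoxd1 gave 0.04, 0.01, -0.08 and -0.08 and were not called. All 13 pluripotency markers were higher on day 18 than on day 2 (median 3.59), and their geometric mean was 1044 with high-KLF4 and 1391 with low-KLF4, against 101 and 93.2 on day 2. Of 13 keratinocyte markers 4 were higher and 1 lower. The part of these changes in the Hox values was not tested. Day 18 has 1 array per cassette, so its spread was taken from the groups with 2 arrays. The day 18 cells are the fraction that still expressed mCherry, and the part of this selection was not tested. Hoxb3, among the 24, lost its call in 11 of 17 alternatives, including without any single keratinocyte, mESC or iPSC array.

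The clusters were also followed within each cassette. From day 2 to day 4, medians in high-KLF4 cells were -0.31 for HoxA, -0.40 for HoxB, -0.35 for HoxC and 0.03 for HoxD. In low-KLF4 cells they were -0.10, -0.15, -0.32 and 0.02 in the same order. HoxD was thus the cluster whose median had not gone down by day 4 in either cassette. With the cassettes averaged, however, its median was -0.04, and 6 of 9 differences were below 0. By day 18 HoxD stood at -0.76 in high-KLF4 and -0.47 in low-KLF4 cells, HoxC at -1.05 and -1.28, HoxA at -0.86 and -0.95, and HoxB at -0.69 and -0.28. In high-KLF4 cells 36 of 37 members read below day 2 on day 18, and in low-KLF4 cells 33 did. The values within a cassette are of single arrays with no test. Fibroblast markers went both ways: on day 18 their median was -0.27 from day 2 in high-KLF4 and -0.01 in low-KLF4 cells. Cdh2 read 2205 and 2421 on day 2 and 716 and 611 on day 18 (high-KLF4 and low-KLF4), whereas Col6a3 read 733 and 636, then 1927 and 2148. In the fit 2 of 29 were called higher (Lum and Pdgfra) and none lower. The SE of these 2 was 0.91 and 0.67, so a missing call does not show that a marker stayed level.

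**Figure D3:**
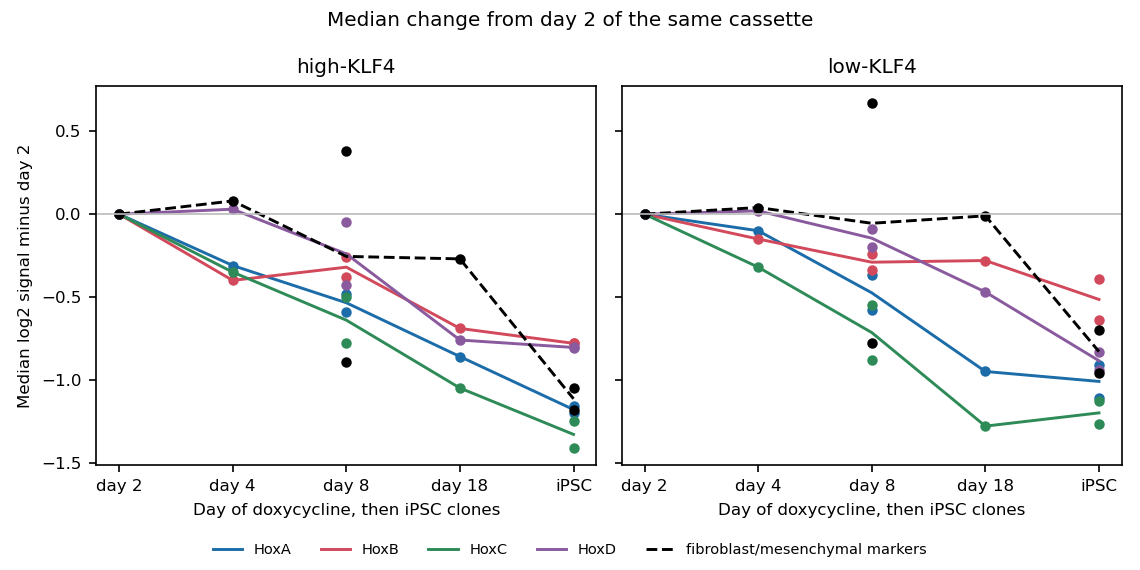
Median log2 signal minus day 2 of the same cassette for each Hox cluster and for 29 fibroblast markers (dashed), over days 2, 4, 8 and 18 and the iPSC clones, with a point per array and lines through the mean of the points. On day 18 HoxC stands at -1.05 in high-KLF4 and -1.28 in low-KLF4 cells, while the fibroblast markers stand at -0.27 and -0.01.

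Day 18 cells, the fraction that still expressed mCherry, were next set against the iPSC clones of the same cassette. Of 37 members, 7 were higher and 4 lower on day 18, where 13.3% of all probes were higher and 17.1% lower. The higher members were Hoxa2, Hoxa3, Hoxa4 and Hoxa9 in HoxA and Hoxb3, Hoxc10 and Hoxd9 elsewhere, with differences between 0.30 and 0.55. The lower members were Hoxc13 at -1.09, Hoxa13 at -0.84, Hoxc8 at -0.82 and Hoxc12 at -0.52. Hoxd13 had the lowest estimate, -1.27 (SE 0.47, adjusted p = 0.0731), and did not pass. It did pass when any 1 of the 4 day 8 arrays was left out, and 7 members were lower without high-KLF4 array 1 or array 2. The count of higher members was 1 without clone A9, 2 without A10, 4 without H10 and 4 without either mESC array. Counted without a test, 15 members in high-KLF4 and 10 in low-KLF4 cells were below both clones on day 18, and 20 and 18 above both. Other markers moved with the comparison. Of 29 fibroblast markers 8 were higher on day 18 and none lower (median 0.74), of 13 keratinocyte markers 9 were higher and 1 lower (0.63), and of 13 pluripotency markers 9 were lower and none higher (-0.87). Their part in the Hox values was not tested.

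The 2 day 8 arrays of each cassette differed in fibroblast markers and in part of the Hox members. In array 2, all 29 fibroblast markers read below array 1 in both cassettes, and the median difference was -1.67 with high-KLF4 and -1.96 with low-KLF4. Medians of the Hox members fell with paralog number, though not in every cluster. The median of paralogs 1 to 4 was 0.13 in high-KLF4 and 0.08 in low-KLF4 cells, that of paralogs 5 to 8 was -0.07 and -0.18, and that of paralogs 9 to 13 was -0.31 and -0.44. In the posterior group 13 of 16 members read lower in array 2 in high-KLF4 and 14 of 16 in low-KLF4 cells. With high-KLF4, Hoxa9, Hoxc10 and Hoxc9 read higher, at 0.53, 0.28 and 0.16, and 6 of 9 HoxC members were above 0. The largest decrease was that of Hoxd13, at -1.24 and -1.72, and the next largest were those of Hoxd10, Hoxd11 and Hoxd12 in high-KLF4 cells and Hoxa13 and Hoxb9 in low-KLF4 cells. Hoxb2 and Hoxc4 read higher in array 2 in both cassettes, at 0.49 and 0.53 with high-KLF4 and 0.27 and 0.31 with low-KLF4. Hoxd8 read higher in array 2 with low-KLF4, at 0.81, and lower with high-KLF4, at -0.28. These are differences between single arrays with no test, and the labels give no reason for them.

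**Figure D4:**
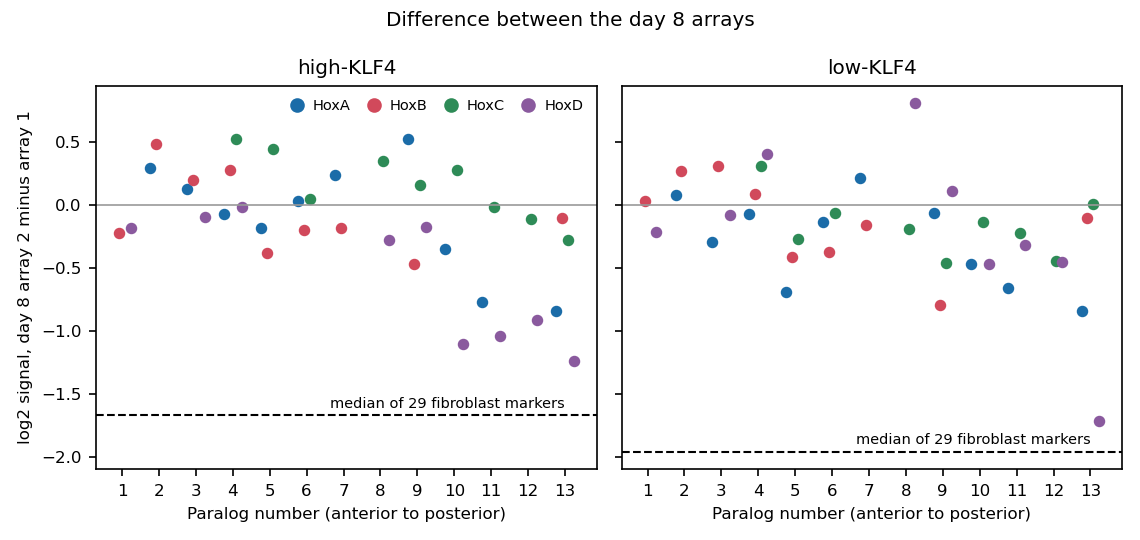
Log2 signal on day 8, array 2 minus array 1, for each Hox gene by paralog number and cluster, in high-KLF4 (left) and low-KLF4 cells (right), with the median of 29 fibroblast markers as a dashed line. Genes of low paralog number lie around 0, and Hoxd13 lies at -1.24 and -1.72.

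Cassettes were compared at matched days. On day 8, 1 member was lower in high-KLF4 than in low-KLF4 cells and none was higher, where 2.71% of all probes were higher and 1.29% lower. The median over members was -0.00. The member was Hoxd4, an anterior HoxD gene that acts in the hindbrain. It read 89.2 at day 2, 68.9 at day 4, 68.9 and 68.4 at day 8, 57.6 at day 18, 57.4 in clone A10 and 52.0 in clone H10 in high-KLF4 cells. In low-KLF4 cells it read 98.5 at day 2, 104 at day 4, 101 and 134 at day 8, 71.1 at day 18, 53.2 in clone A7 and 50.5 in clone A9. Keratinocytes read 52.5 and 58.0 and mESCs 54.1 and 57.5. The probe was dim: every value lay below the array medians of 139.4 to 161.6, and it was among the dimmest 30% of probes. High-KLF4 arrays were below low-KLF4 arrays on every day from 2 to 18, with a day 8 difference of -0.76 (SE 0.13, adjusted p = 0.0177). The call was lost in 7 of 22 alternatives that kept the probe. Among them were the fits without high-KLF4 array 2 (-0.76) or low-KLF4 array 2 (-0.56) and the methods' t-test. It was also lost when the 4 day 8 arrays were fitted alone (limma, adjusted p = 0.559). Without low-KLF4 array 1, 2 members were called lower. Hoxd8 lay at -0.89 (SE 0.25, adjusted p = 0.104) and was not called. Its high-KLF4 day 8 arrays read 113 and 93.3, against 144 and 253 in low-KLF4 cells.

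With days 2 and 4 averaged, no member was called between the cassettes (limma, 1 at an unadjusted p under 0.05), where 0.786% of all probes were higher and 0.179% lower in high-KLF4 cells. The median was -0.03, and differences lay between -0.37 and 0.50. The change from day 2 to day 8 was also compared between cassettes, and no member passed (2 at an unadjusted p under 0.05), where 0.0342% of all probes were higher and 0.0299% lower. Keratinocyte markers did differ on day 8, with 7 of 13 higher in high-KLF4 cells (median 1.52). A missing call does not show that the cassettes act alike on Hox genes.

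The iPSC clones were then set against mESCs. Of 37 members 1 was higher and none lower, where 2.02% of all probes were higher and 2.28% lower. The median was 0.17, and 29 of 37 differences were above 0. Hoxc8 was the member, at 0.91 (SE 0.18, adjusted p = 0.0312), and clones A10, H10, A7 and A9 read 499, 462, 615 and 462, against 328 and 221 in mESCs. Its call was lost in 6 of 17 alternatives: without clone A10, H10 or A7, without mESC array 2 or without either keratinocyte array. Fibroblast markers stood higher in the clones by a median of 0.38 with no gene called.

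Keratinocytes were set against mESCs to see which Hox genes they express. Against mESCs, 19 of 37 members were higher and 1 lower, where 17.7% of all probes were higher and 20.4% lower. The median was 0.56, against 0.00 over all probes. HoxB had 7 of 9 higher, HoxA 6 of 10, HoxC 5 of 9 with 1 lower, and HoxD 1 of 9, Hoxd8. Paralogs 5 to 8 had 9 of 10 higher (median 0.98), paralogs 1 to 4 had 6 of 11 (0.56) and paralogs 9 to 13 had 4 of 16 (-0.26). Without keratinocyte array 1 the count of higher members was 12, and the count of lower members was 2 without mESC array 2 or either high-KLF4 day 8 array. Melanocyte markers moved with the group, as 6 of 7 were higher and none lower in keratinocytes, and their summed signal was 11110 and 8071, against 1102 and 1007 in mESCs. Hair follicle markers had 4 of 8 higher. Of 29 fibroblast markers 8 were lower and 1 higher, and their summed signal was 18400 and 16860, against 36190 and 36090. The part these cells play was not tested.

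By size, Hoxb9 came first in keratinocytes, 2.04 (SE 0.26, adjusted p = 0.000336) above mESCs, a factor of 4.11. Hoxb4, a gene of the anterior trunk that enlarges blood stem cell pools, read 176 at day 2, 134 at day 4, 127 and 154 at day 8, 105 at day 18, 102 in clone A10 and 92.4 in clone H10 with high-KLF4. With low-KLF4 it read 158 at day 2, 139.7 at day 4, 134 and 142 at day 8, 129.9 at day 18, 119.9 in clone A7 and 101 in clone A9. Keratinocytes read 293 and 228 and mESCs 100.1 and 86.7. Keratinocytes were above every other array, 1.47 (SE 0.16, adjusted p = 0.00013) above mESCs. Hoxb2, which acts in the hindbrain, read 343 at day 2, 207 at day 4, 234 and 329 at day 8, 266 at day 18, 222 in clone A10 and 201 in clone H10 with high-KLF4. With low-KLF4 it read 320.4 at day 2, 248 at day 4, 274 and 329.9 at day 8, 282 at day 18, 228 in clone A7 and 218 in clone A9. Keratinocytes read 466 and 466 and mESCs 182 and 164. It differed from mESCs by 1.43 (SE 0.16, adjusted p = 0.000183), with keratinocytes again above every other array. Hoxc6, a trunk gene of the mammary region and thorax, read 489 at day 2, 490.1 at day 4, 384 and 398 at day 8, 236 at day 18, 176 in clone A10 and 136 in clone H10 in high-KLF4 cells. Low-KLF4 cells gave 543 at day 2, 469 at day 4, 331 and 318 at day 8, 201 at day 18, 208 in clone A7 and 162 in clone A9. Keratinocytes read 353 and 318 and mESCs 127 and 144. Its keratinocyte difference was 1.30 (SE 0.16, adjusted p = 0.000249). Hoxa9 stood 1.41 (SE 0.18, adjusted p = 0.000426) above mESCs, and Hoxa7 1.36 (SE 0.17, adjusted p = 0.000367).

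Among paralogs 9 to 13 that did not pass in keratinocytes against mESCs, Hoxd13, Hoxd10, Hoxa13 and Hoxa10 had the lowest estimates, -0.76, -0.75, -0.45 and -0.41. Hoxa11, Hoxd11, Hoxc10 and Hoxd12 gave -0.34, -0.32, -0.28 and -0.24, and Hoxc11 and Hoxd9 gave 0.14 and 0.27. Hoxc12 was called lower, at -0.67 (SE 0.13, adjusted p = 0.00422). Hoxc13 was the highest-numbered member called higher, at 0.60 (SE 0.20, adjusted p = 0.0468), with 175 and 162 in keratinocytes and 136 and 90.9 in mESCs. The iPSC clones A10, H10, A7 and A9 read 145, 186, 144 and 169, which overlap the keratinocyte values. Among the other paralog 13 genes, Hoxb13 differed by 0.06.

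**Figure D5:**
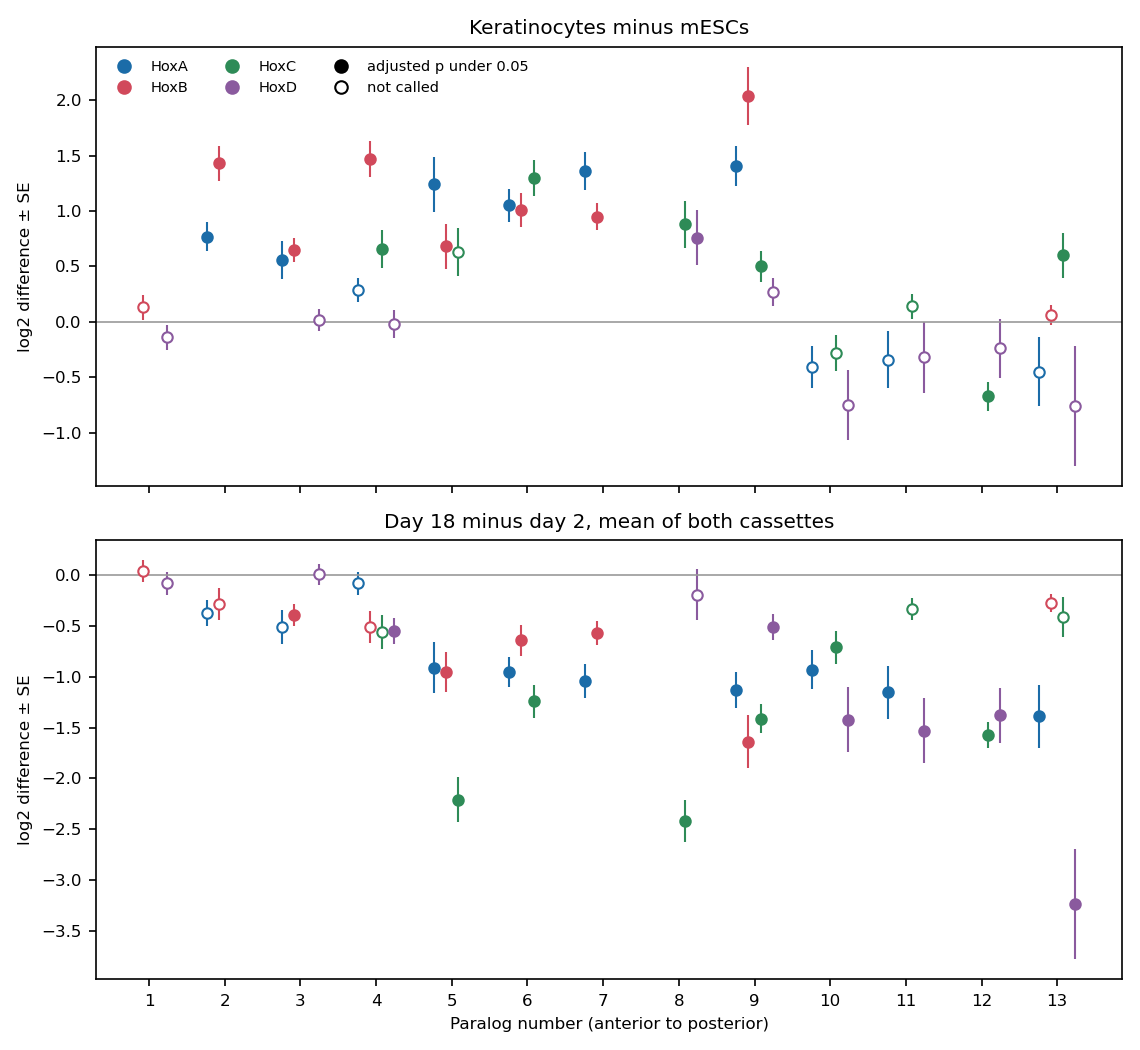
Log2 difference with its SE by paralog number for each Hox gene, coloured by cluster, filled where the adjusted p was under 0.05: keratinocytes minus mESCs (top) and day 18 minus day 2 (bottom). In keratinocytes the filled points above 0 end at paralog 9 apart from Hoxc13, and from day 2 to day 18 Hoxd13 has the lowest point at -3.24.

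Against day 2 cells, keratinocytes had 3 members higher and 16 lower, where 11.8% of all probes were higher and 15.6% lower. Higher were Hoxc13 at 0.75 (SE 0.20, adjusted p = 0.0257), Hoxb4 at 0.63 and Hoxb7 at 0.51. No higher member was left without keratinocyte array 1, and 5 were called without either low-KLF4 day 8 array. Lower were 6 of 9 in HoxD and in HoxC and 4 of 10 in HoxA, with none in HoxB. Hoxd13 led at -3.17 (SE 0.54, adjusted p = 0.00317), followed by Hoxd10 at -1.82, Hoxd11 at -1.76, Hoxc10 at -1.71 and Hoxa11 at -1.63. Hoxa9, Hoxa7 and Hoxa6 differed by -0.36, -0.25 and -0.42 and did not pass. Fibroblast markers moved the same way, with 21 of 29 lower in keratinocytes. The keratinocytes came from skin of pups without the limbs, whereas day 2 cells came from embryonic fibroblasts. The part of body site, age or culture in these differences was not tested. Over all groups, high-KLF4 day 2 held the highest mean of 13 members, low-KLF4 day 2 that of 7 and keratinocytes that of 6, whereas mESCs held the lowest mean of 15 and high-KLF4 day 18 that of 10.

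Among transcripts that lie within the clusters but are no members, 9 of 16 listed were measured. The probe of Mir196a-1, which lies between Hoxb13 and Hoxb9 and whose sequence is given above, read 166 and 88.6 in keratinocytes and 38.9 and 39.8 in mESCs. It lay between 38.8 and 54.8 on the other arrays. The keratinocyte difference was 1.62 from mESCs (SE 0.23, adjusted p = 0.000706) and 1.36 from day 2 (SE 0.23, adjusted p = 0.0034). Mir196a-2 in HoxC, with the same mature sequence, read 39.4 and 38.6 in keratinocytes and 38.4 and 40.0 in mESCs and was not called, and Mir10a and Mir10b read between 23.4 and 27.1 on all arrays. A probe of this array reads transcripts that span the hairpin, not the mature microRNA. On day 2, 4 of the 9 were higher than in pluripotent cells, led by Mir615 and Hoxd3os1, where 25.7% of all probes were higher.

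The partners of HOX proteins were called in both directions. Of 9 TALE cofactors measured, 4 were higher on day 2 than in pluripotent cells (led by Meis2 and Meis3) and 2 lower (Tgif1 and Pbx2). Meis2 differed by 1.49 (SE 0.22, adjusted p = 0.000944). The shares of all probes on day 2 were 25.7% higher and 18.6% lower. On day 18, when 24 Hox members were lower than on day 2, Pknox1 was lower among the 9 cofactors and Pbx2 higher. These day 18 counts lie near the shares of all probes, 12.8% lower and 7.71% higher. Meis2 read 868 in high-KLF4 and 895 in low-KLF4 cells on day 18, against 912 and 821 on day 2. In keratinocytes Meis1 and Meis2 were higher and Pbx3 and Pknox2 lower than in mESCs.

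Most Polycomb and Trithorax genes called on day 2 were lower. Of 32 measured, 6 were higher than in pluripotent cells and 19 lower (median -0.71), where 25.7% of all probes were higher and 18.6% lower. Jarid2, a Polycomb partner, differed by -2.93 (SE 0.24, adjusted p = 5.1e-05), and Cbx7, a reader of the Polycomb mark, by -3.30 (SE 0.29, adjusted p = 7.57e-05). Bmi1 went against these, at 1.12 (SE 0.14, adjusted p = 0.000466). By day 18, 6 were higher than on day 2, Cbx7 and Jarid2 among them, and Bmi1 was lower. Over all probes 7.71% were higher and 12.8% lower on day 18. Jarid2 read 2156 and 2191 on day 18, against 531 and 552 on day 2. Keratinocytes had 7 higher and 18 lower than mESCs, where 17.7% of all probes were higher and 20.4% lower.

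Other positional transcription factors of mesenchyme also separated day 2 from pluripotent cells. Of 45 measured, 31 were higher on day 2 than in pluripotent cells and 4 lower, and 8 were lower on day 18 than on day 2 and 3 higher. The shares of all probes for day 2 were 25.7% higher and 18.6% lower. The day 18 counts lie near the shares of all probes, 12.8% lower and 7.71% higher. Meox2 and Six2 differed most among the 8. The 45 were ranked by Pearson's r, over 18 arrays, with the mean profile of the 31 Hox members called higher on day 2. The first were Emx2 (0.89), Meox2 (0.87) and Six2 (0.86). Because that profile was chosen for being high on day 2, factors with the same contrast rank high by construction. The 18 points share groups and cultures, so r is given as a description. Meox2, a regulator of somite and muscle development, read 123 and 140.1 on day 18, against 246 and 353 on day 2.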

How the data were processed

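The values come from 18 Affymetrix Mouse Gene 1.0 ST arrays, 1 per sample, in 12 groups, of which 6 had 2 arrays and 6 had 1. The deposited values are intensity (RMA signal) on a linear scale, which the authors made in GeneSpring by background correction, quantile normalization and summary per transcript cluster. The genome build of the annotation is not given in the sources used here, and no detection calls were used, so the signal of an absent transcript is unknown and levels of different probes are not compared. Signals ran between 20.2 and 19538.7, with array medians of 139.4 to 161.6. The number of arrays limits the precision.

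Values were taken to log2 and fitted with limma 3.58.1 (R 4.3.3) as 12 groups, with 6 residual degrees of freedom and a prior of 2.25, so groups with 1 array borrow the spread of the others. Of 28853 probes, 21789 carried 1 symbol, 1621 several and 5443 none. The 23410 with a symbol were tested, with Benjamini-Hochberg adjustment over all of them and a call at an adjusted p under 0.05, in 11 comparisons. Day 2, 4, 8 and 18 comparisons average the cassettes. Pluripotent cells are the mean of both iPSC groups and mESCs, and day 18 was set against iPSCs of the same cassette.

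The members and the 13 gene lists were chosen with earlier results of these data known. Values on every array are given for the 3 members per cluster with the largest day 2 difference among those called higher, the 6 largest of those called in keratinocytes against mESCs, and each member called between cassettes. For other lists at most the 2 largest changes each way are named. Exceptions are lists of called Hox genes, Cdh2, Col6a3, Mir196a-2, Mir10a and Mir10b, and the genes ranked by their correlation. On simulated data for day 2 against pluripotent cells over 23410 probes, the fit called 81 of 100 probes with a true log2 difference of 1. It called 97 of 100 with a difference of 2, and 13 of 23210 with none. The simulated noise was independent, and far fewer probes were changed than the 6026 higher and 4360 lower of the real comparison. The rates thus need not hold for the real arrays. Alternatives covered a second normalization, filters on dim probes, blocks, the methods' t-test and leaving out each array of a pair. Sequences were read from RefSeq tables of GRCm38.p6 with Python 3.11.15.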

Additional observations from a re-analysis of the deposited data

How the results depend on the processing

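No called result reversed direction. Under the alternatives, 353 counts of called members stayed within 1.5 times the reported count and 51 did not. The 353 include counts of 0 that stayed 0 and alternatives that left out arrays outside the comparison, so they overstate stability. Single genes kept their side of the threshold in 1816 cases, lost a call in 53 and gained one in 79. Medians of the members held within the spread between replicates in 195 cases and moved in 7. For day 8 against day 2 the median was -0.48 without high-KLF4 day 8 array 1 and -0.49 without both arrays numbered 1, and for day 18 against day 2 it was -0.91 without the dimmest 30% of probes. Between cassettes on day 8 it was -0.15 without low-KLF4 array 2 and -0.14 without high-KLF4 array 1. For the cassette difference in the change to day 8, where no member was called, it was 0.08 without low-KLF4 array 1 and -0.17 without both arrays numbered 2, against -0.04 in the reported fit. Leaving out 1 array of a pair gave 31 to 32 members higher and 0 to 1 lower for day 2 against pluripotent cells, 0 to 1 lower for day 4 and 5 to 14 lower for day 8 against day 2, and 22 to 27 lower for day 18 against day 2. It gave 1 to 9 higher and 3 to 7 lower for day 18 against iPSC clones, 0 to 2 lower between cassettes on day 8, 0 to 1 higher for iPSC clones against mESCs, 12 to 20 higher and 1 to 2 lower for keratinocytes against mESCs, and 0 to 5 higher and 12 to 17 lower for keratinocytes against day 2. Fitting the compared groups only gave 0 lower for day 8 against day 2, 14 higher and 8 lower for day 18 against iPSC clones, 0 lower between cassettes on day 8, 3 higher for iPSC clones against mESCs and 5 lower for keratinocytes against mESCs. The cassette as a block gave 0 lower for day 8 against day 2, and a second quantile normalization gave 3 higher for day 18 against iPSC clones. For the day 8 cassettes, the methods' t-test after Benjamini-Hochberg and a difference of 2-fold each gave 0 lower. The methods' t-test without adjustment gave 1 higher. Removing the dimmest 30% of probes also gave 0 lower, since it removed the Hoxd4 probe itself. The causes were not tested.

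The labels number the arrays of a group, but the numbers are not stated to pair them. The differences between the day 8 arrays correlated between cassettes (r = 0.735 across genes, which are not independent replicates), and other pairs of groups did not. With the replicate block on the day 8 arrays, 19 members were lower on day 8 than on day 2 and 2 between cassettes, and with a replicate block in a fit of 4 arrays 4 were lower in keratinocytes than in mESCs. Chosen after seeing the data, leaving out both day 8 arrays numbered 2 gave 10 lower for day 8 against day 2 and 0 between cassettes, leaving out both numbered 1 gave 22 and 2, and mESCs as the only pluripotent cells gave 0 lower on day 2. Groups with 1 array could not be left out, and fits of the compared groups alone could not be made for days 4 and 18 against day 2 or for the cassettes on days 2 and 4, which have no residual degrees of freedom.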

Other observations

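Genes that handle retinoic acid, the signal that switches on anterior Hox genes in the embryo, were called in both directions on day 18, when 2 of 11 Hox members of paralogs 1 to 4 were called. Of 18 measured, 4 were higher and 2 lower on day 18 than on day 2. Over all probes 7.71% were higher and 12.8% lower, so the lower count lies near that share. Cyp26a1, the enzyme that breaks down retinoic acid, read 1575 in high-KLF4 and 798 in low-KLF4 cells on day 18, against 65.8 and 62.6 on day 2. The difference was 4.13 on the log2 scale (limma, SE 0.12, adjusted p = 6.48e-07). The iPSC clones read between 55.0 and 66.3, and day 18 was above the clones by 4.24 (SE 0.10, adjusted p = 2.2e-07). Crabp2, which carries retinoic acid to the nucleus, differed by -2.23 between day 18 and day 2.

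A list of ParaHox and Cdx genes, relatives of the Hox clusters, also held Evx1, Evx2 and Gbx2, which belong to neither group. Of its 9 measured genes 3 were higher and none lower on day 18 than on day 2. Over all probes 7.71% were higher and 12.8% lower. Cdx2 was the only ParaHox or Cdx gene among the 3. Cdx2, a regulator of posterior Hox genes in the embryo, read 118 in high-KLF4 and 137 in low-KLF4 cells on day 18, against 81.4 and 85.6 on day 2.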
